A study of Mus musculus with 4 samples.

Results

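The voltage-gated sodium and calcium channel genes are the 40 genes, of 21866 protein-coding genes with a representative mRNA in GENCODE M21 (mouse genome mm10), whose symbols name a sodium channel alpha or beta subunit (Scn) or a calcium channel alpha1, beta, alpha2delta or gamma subunit (Cacn). They were split by role into 20 pore subunits (10 Scn alpha and 10 Cacna1 genes) and 20 auxiliary subunits (4 Scn beta, 4 Cacnb, 4 Cacna2d and 8 Cacng genes). The data were m6A-seq of whole brain from C57BL/6J mice at 4 weeks of age. In this assay, mRNA fragments that carry N6-methyladenosine (m6A), a methylated form of adenosine, are pulled down with an antibody and sequenced beside the RNA before pulldown (input). The series has 2 IP and 2 input samples, and its design text gives the mice as Prrc2a flox/flox, which all samples share. No label names a Cre allele, and no group with altered Prrc2a or altered m6A was compared here.

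Each IP replicate had its own list of m6A peaks with a fold enrichment, the linear ratio of IP over input. The list of replicate 1 had 38533 peaks and that of replicate 2 had 30134, and their median values were 2.88 and 2.20. Read counts were not in the lists, so that the depth behind a peak is unknown. Peaks that met a peak from the other list over 1 bp or more were taken as shared, and the bases in common are called a shared interval. Input RNA levels were not analysed here, so that a gene with little RNA and a gene with little m6A cannot be told apart. As a check of the tissue label, 15 of 16 marker genes of neurons, astrocytes, oligodendrocytes and microglia had a shared interval, against 1 of 9 marker genes of skeletal muscle, heart and retina. That gene was Myh6, a cardiac myosin.

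Voltage-gated channels open when the membrane depolarises. Sodium channels carry the upstroke of the action potential, and calcium channels turn the electrical signal into calcium entry, which triggers transmitter release and gene expression. The pore is 1 long polypeptide of 4 similar domains, I to IV, each with a charged voltage-sensing helix, S4, and the loops between domains hold many of the sites for regulation. Beta, alpha2delta and gamma subunits bind the pore or traffic with it and tune its surface number and gating. Several gamma subunits also serve as partners of AMPA-type glutamate receptors.

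The pore genes with shared intervals had one near the end of their coding sequence, and the letters beneath show how such places vary between close relatives. The motif GGACT, a form of the m6A consensus, was searched on the transcript strand. Scn1a, Scn2a, Scn3a and Scn8a encode the main sodium channels of the central nervous system, and their intervals in the last exon, exon 27, overlapped over 263 aligned codons. The windows of 25 bases (GRCm38, 5′ to 3′) aligned to the GGACT of Scn3a are shown because 3 of the 4 genes hold the motif at the same codon. Capitals mark the motif and the letters aligned with it.
Scn3a, codon 1665, chr2:65461394-65461418, minus strand: gggctgggatGGACTgttggccccc
Scn1a, codon 1728, chr2:66273719-66273743, minus strand: gggctgggatGGACTgctggccccc
Scn2a, codon 1719, chr2:65763953-65763977, plus strand: gggctgggatGGACTgctggcccct
Scn8a, codon 1717, chr15:101039860-101039884, plus strand: tggttgggatGGCTTactgctgcca

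Positions were counted from 1 at the 5′ end of the window. Relative to Scn3a, Scn1a carried T17C and Scn2a carried T17C and C25T, all outside the motif. Scn8a carried A13C and C14T inside it. All 4 windows lay inside a shared interval of their gene. The exon 27 interval of Scn8a over this window held 2 GGACT at other places. A match to the motif is a description of the letters and does not locate the methylated base, since the 92 shared intervals of the channel genes had a median length of 364 nt.

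Of the 40 genes, 27 (67.5%) had a shared interval over their exons. The share among all protein-coding genes was 45.5%, and among the 2072 genes with an mRNA in the length range of the pore subunits (5899 to 14921 nt) it was 72.4%. The share of the pore subunits, 12 of 20 (60%), was thus not above that of genes of similar length. The 94 potassium channel genes (Kcn) were at 69.1% (65 genes). The auxiliary subunits, with shorter mRNAs (median 3700 nt against 8078 nt), were at 15 of 20 (75%). Replicate 1 and replicate 2 each had peaks over exons of 31 of the 40 genes. In replicate 1, 89 of the 122 exonic peaks (73.0%) were shared, and in replicate 2, 93 of 121 (76.9%). Over all protein-coding genes these shares were 67.8% and 76.8%.

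The members without a shared interval were mainly genes known for tissues other than brain. No peak of either replicate was found over Scn4a and Cacna1s, the pore genes of skeletal muscle, Cacna1f of the retina, Scn10a and Scn11a of peripheral sensory neurons, Scn7a, an atypical sodium channel, Cacng1 of skeletal muscle, or Cacng6. Cacna2d4, an alpha2delta subunit known from the retina, had 1 peak in replicate 1, at 3.42, and none in replicate 2. Cacna2d3 and Scn9a had peaks in both replicates that did not meet over an exon. Cacna2d3 had peaks at 3.11 and 1.82 in replicate 1 and at 1.85 in replicate 2, in different exons. Scn9a, a sodium channel of sensory neurons, had a replicate 1 peak at 4.31 in the coding part of exon 27, and its exonic replicate 2 peak (3.40) met replicate 1 only outside the exons.

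**Figure D1:**
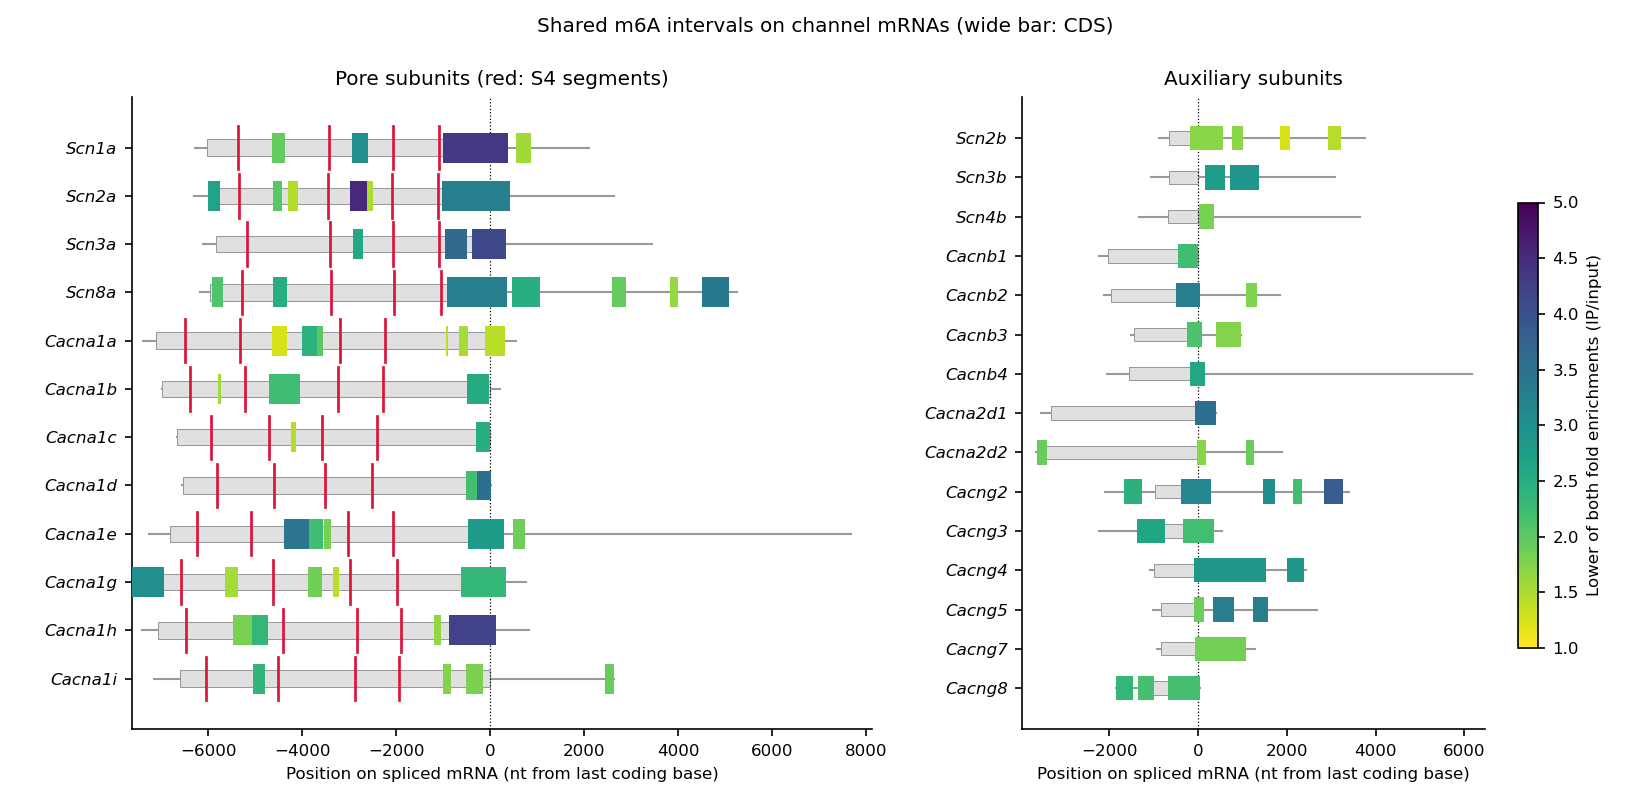
Shared m6A intervals on the spliced representative mRNA of the 12 pore and 15 auxiliary subunit genes that have one. The x axis is the position in nt from the last coding base, the wide bar is the coding sequence (CDS), the thin line the UTRs, red lines the S4 segments, and the colour the lower of both fold enrichments. Each of the 27 genes has an interval in its last exon, and intervals inside the coding sequence are seen mostly in the pore genes.

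Every one of the 27 genes had a shared interval with its midpoint in the last exon of the representative mRNA. Over all 8828 genes of several exons with a placed interval this share was 75.5%, and for potassium channel genes it was 53 of 58 (91.4%). In 23 of the 27 genes (85.2%), 10 pore and 13 auxiliary, an interval covered the last coding base, against 51.8% over all genes and 44 of 58 (75.9%) potassium channel genes. The 4 exceptions were Cacna1b, Cacna1i, Scn3b and Scn4b. Genes in the length range of the pore subunits were at 79.2% for the last exon and 55.6% for the last coding base. A gene with more intervals has more chances to meet either place. The median number in genes with intervals was 3 for channel genes and 2 over all genes, and its part was not tested. For Cacna1c, Cacna1d and Cacnb1 the representative mRNA has at most 9 nt of 3′ UTR, so that positions beyond the coding end were not placed in these genes.

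Where the intervals lay otherwise differed between the pore and auxiliary genes. Of the 92 shared intervals, 84 had a midpoint in exactly 1 representative mRNA and were placed, 51 in pore and 33 in auxiliary genes. In pore genes 42 of 51 (82.4%, 95% Wilson interval 69.7 to 90.4) were in the coding sequence, where CDS is 73.0% of the length of the same mRNAs. In auxiliary genes 7 of 33 (21.2%, 10.7 to 37.8) were in the coding sequence, which is 36.1% of their length, and 22 of 33 (66.7%) were in the 3′ UTR. Over all genes 61.6% of the placed intervals were in the coding sequence. Wilson intervals cover counting error only, and intervals of 1 gene are not independent of each other.

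**Figure D2:**
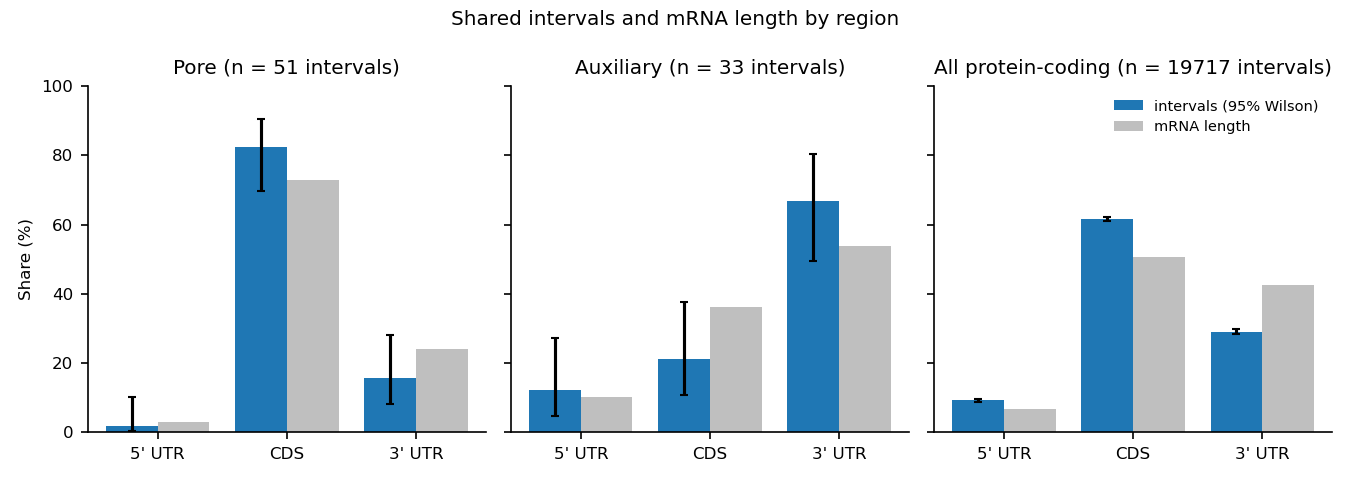
Share in percent of placed shared intervals (blue, with 95% Wilson intervals) and of mRNA length (grey) in the 5′ UTR, CDS and 3′ UTR, for pore subunits, auxiliary subunits and all protein-coding genes. The coding sequence holds 82.4% of the intervals in pore genes and 21.2% in auxiliary genes, and the grey bars show that it also takes a larger part of the pore mRNAs.

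The window of 200 nt on either side of the last coding base held 6 of 51 pore intervals (11.8%, 5.51 to 23.4) and 11 of 33 auxiliary intervals (33.3%, 19.8 to 50.4), where 23% was found over all genes. This window takes 4.10% of the pore mRNAs and 9.48% of the auxiliary mRNAs. Both shares were therefore above the share of length. The pore intervals at the coding end were long, and their midpoints were often further upstream. With any base of the interval counted, the shares were 23.5% for pore and 45.5% for auxiliary genes. Intervals in internal exons were almost all in pore genes, with 18 in internal exons under 400 nt and 12 in longer ones, against 0 and 1 in auxiliary genes. The 1 auxiliary case was exon 3 of Cacng8. A count of 0 of 33 allows a share of up to 9.09% in short internal exons. Short internal exons held 35.3% of the pore intervals and 23.3% of those of all genes. Their share of the mRNA length was not computed, so these values do not show an excess for length. Last exons make up 32.7% of the pore mRNAs, 62.0% of the auxiliary mRNAs and 50.0% over all genes. Internal exons of 400 nt or more make up 7.60% of the pore mRNAs and held 23.5% of their intervals, and over all genes these values were 7.93% and 15.3%. Of the placed pore intervals, 5 had under 50% of their bases in the exon and reached into the flanking introns, among them exon 44 of Cacna1a, which is 36 nt long.

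In the coding sequence of the pore genes the intervals fell mostly into 3 of the 5 stretches marked out by the S4 helices. The S4 segments were found by a script as runs with arginine or lysine spaced by a pair of uncharged residues, 4 or more times, and exactly 4 were found in each of the 12 pore genes with shared intervals. After S4-IV, a stretch that encodes the last pore segment and the cytoplasmic C-terminus, all 12 genes had an interval, 17 of 42 in all (40.5%, for 27.2% of the codons). Between S4-II and S4-III, which includes the loop from domain II to III, lay 14 intervals in 8 genes (33.3%, for 23.7% of the codons). In presynaptic calcium channels this loop binds the proteins of the release machinery. Between S4-I and S4-II, which includes the loop from domain I to II, lay 9 intervals in 7 genes (21.4%, for 24.2% of the codons). Before S4-I were 2 intervals, both in exon 2 of sodium channels (4.76%, for 9.86% of the codons).

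Between S4-III and S4-IV no placed shared interval had its midpoint, in any of the 12 genes. This stretch has 15.1% of the codons. In sodium channels it includes the short loop that closes the pore during fast inactivation. A count of 0 of 42 allows a share of up to 7.14%. The 3 shared intervals of pore genes that were not placed were assigned to no stretch. Of these, 1 in Cacna1g (chr11:94425674-94425877, at 1.87 and 1.61) lay between its intervals of exons 19 and 38. With the peaks of replicate 1 alone 1 midpoint of 51 fell there, and with those of replicate 2 alone 1 of 54. No replicate 2 peak without a partner had its midpoint there, so that this midpoint was from a shared peak. The count of 0 thus holds only for the midpoints of placed shared intervals. This stretch had 0.505 GGACT per kb of coding sequence, against 1.31 to 1.80 in the other four, and its longest exon was 285 nt, against 725 to 8205 nt elsewhere, while its median exon length, 129 nt, lay within the range of the others (119.5 to 160 nt). The part of motif number and exon length in the distribution was not tested.

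**Figure D3:**
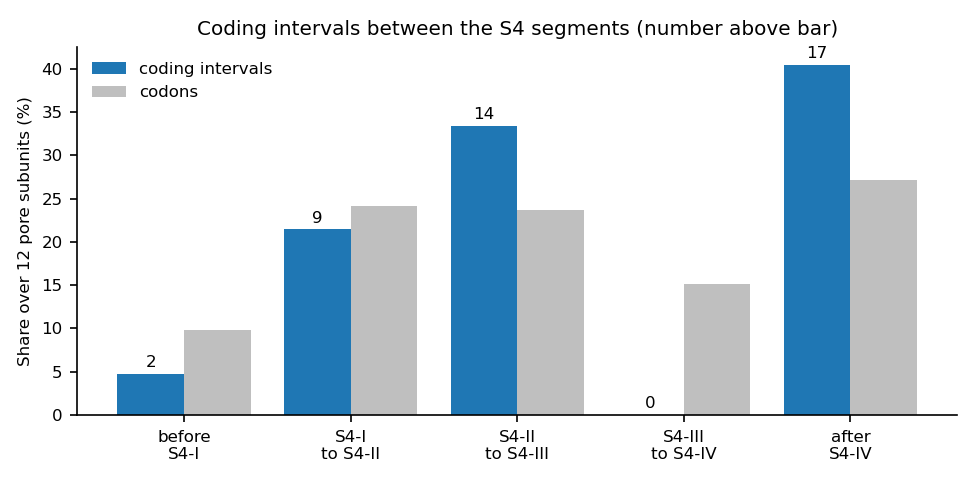
Share in percent of the 42 coding shared intervals of 12 pore genes (blue, number of intervals above the bar) and of their codons (grey) in the 5 stretches marked out by the S4 helices. The stretch from S4-III to S4-IV has 15.1% of the codons and 0 of these placed intervals, and the stretch after S4-IV has 17.

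Among the sodium channel pore genes, 4 of 10 had shared intervals, 20 in all. Scn1a, prominent in inhibitory interneurons, had 4, and its exon 27 interval of 1378 nt was enriched 5.91-fold in replicate 1 and 4.36-fold in replicate 2. Its exon 17 interval was at 4.22 and 3.01, its exon 11 interval at 2.85 and 1.96, and a 3′ UTR interval at 1.65 and 1.58. The Scn1a intervals with midpoints in coding sequence were thus higher than its 3′ UTR interval in both replicates. That of exon 27 also covered the last coding base. Scn2a, the channel of excitatory neurons and their early axons, had 6 intervals, all with midpoints in coding sequence. The strongest was in exon 17 (chr2:65717488-65717958), at 5.94 and 4.53, the largest lower value of both replicates among all members. Only 1.19% of the 20996 matched pairs of all genes were as high in both replicates. Its exon 27 interval was at 6.62 and 3.28, and those in exons 2, 11, 12 and 18 ranged from 1.49 to 2.88 in replicate 1 and from 1.46 to 2.68 in replicate 2.

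Scn3a, highest in the developing brain, had intervals in exons 17 and 27. That of exon 17 was at 2.64 and 2.60. In exon 27, a single replicate 1 peak of 1420 nt at 5.27 overlapped a pair of replicate 2 peaks, at 3.67 and 4.13. Scn8a, the channel of nodes of Ranvier and mature axon initial segments, had 7 intervals, a number reached by 1.40% of all genes. Its mRNA is long, 11436 nt, and per kb it had 0.612 intervals, against 0.580 over all genes with intervals. Its exon 27 pair had the highest replicate 1 value of all members, 7.66, but 3.30 in replicate 2, and the ratio of 2.32 was among the 5 largest between replicates. The coding intervals in exons 2 and 11 were at 2.10 and 2.12, and at 4.32 and 2.51. Its 3′ UTR of 5253 nt held 4 intervals. The first of them came from the replicate 1 peak that also spanned the coding end, with a replicate 2 peak of its own at 2.48, and the furthest was 4794 nt past the coding end (chr15:101045187-101045772) at 4.75 and 3.38. This distal site held 1 GGACT.
Scn8a, distal 3′ UTR, chr15:101045560-101045584, plus strand: agtattctttGGACTtgaggaagag

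The 4 proteins are 77.5% to 88.0% identical in pairs, and their intervals coincided in part. Exon 2, which encodes the cytoplasmic N-terminus, had an interval in Scn2a and Scn8a with 74 codons in common, in Scn1a only a replicate 1 peak at 2.09, and in Scn3a no peak. Exon 11, in the loop from domain I to II, had an interval in Scn1a, Scn2a and Scn8a with 64 codons in common, and in Scn3a only a replicate 2 peak at 2.03. Exon 17, in the loop from domain II to III, had an interval in Scn1a, Scn2a and Scn3a with 64 codons in common, and no peak in Scn8a. The exon 17 intervals of the 3 genes did not share a GGACT. In Scn1a the window was as printed here, and the aligned letters were GAATT in Scn2a and TAACT in Scn3a.
Scn1a, codon 1074, chr2:66318000-66318024, minus strand: ggaaagatctGGACTgtctgaaaga
Scn2a, codon 1067, chr2:65717653-65717677, plus strand: gcaaggacctGAATTacctcaaaga
Scn3a, codon 1014, chr2:65495119-65495143, minus strand: gcaaagagctTAACTaccttaaaga

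The strongest of these 3, that of Scn2a, held no GGACT but 2 matches to the shorter GGAC.

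**Figure D4:**
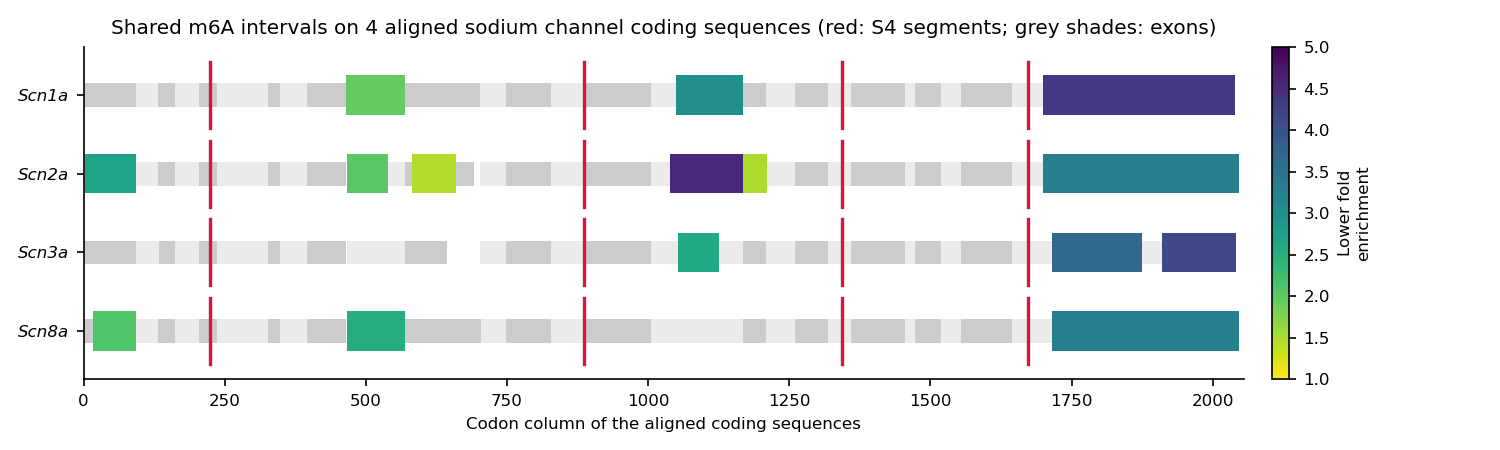
Shared m6A intervals on the aligned coding sequences of Scn1a, Scn2a, Scn3a and Scn8a. The x axis is the codon column of the alignment, grey shades are exons, red lines are S4 segments, and the colour is the lower of both fold enrichments. All 4 genes have an interval past the last S4 segment, and none has one between the third and the last.

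Among the calcium channel pore genes, 8 of 10 had shared intervals, 34 in all. Cacna1a, the P/Q-type channel of most central synapses, had 7 intervals, but low ones. Its strongest pair, in exon 20, was at 3.75 in replicate 1 and 2.43 in replicate 2, and its medians were 2.05 and 1.90. It lies in the loop from domain II to III together with the intervals of exons 19 and 21. Cacna1b, the N-type channel, also of synapses, had 3 intervals. Exon 19 was at 4.67 and 2.23, exon 47, the last, at 3.46 and 2.55, and exon 9 at 1.55 and 1.67. Cacna1e, the R-type channel, had 6 intervals, among them 3 in consecutive exons of the same loop and a pair, at the coding end and past it, that came from a single replicate 1 peak. Exon 20 was at 6.11 and 3.45, exon 21 at 2.44 and 2.23 and exon 22 at 3.40 and 1.83. The exon 20 interval held 3 GGACT, and the windows nearest its midpoint and nearest that of the Cacna1b exon 19 interval are printed because both sit in this loop.
Cacna1e, exon 20, codon 929, chr1:154472217-154472241, minus strand: cgccgagtcaGGACTgagggcaagg
Cacna1b, exon 19, codon 936, chr2:24679095-24679119, minus strand: ggcatgcacaGGACTcaagcaagga

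Cacna1c and Cacna1d, the L-type channels of brain, couple calcium entry to gene expression. Both had few intervals (2 each). Cacna1c reached 6.91 in replicate 1 and 2.48 in replicate 2 in its last exon, 48, and 3.58 and 1.46 in exon 18, and both pairs were among the 5 with the largest ratio between replicates, 2.78 and 2.45. Cacna1d was closer between replicates, at 4.19 and 3.56 in exon 49, the last, and at 2.23 and 2.20 in exon 48. The last exons encode the end of the C-terminal tail in both.
Cacna1c, exon 48, codon 2128, chr6:118594165-118594189, minus strand: gatttcagaaGGACTgggacagttt
Cacna1d, exon 49, codon 2145, chr14:30042167-30042191, minus strand: cccaccgccaGGACTatgagctcca

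Cacna1g, Cacna1h and Cacna1i encode the T-type channels, which open at low voltages and support burst firing. Cacna1h had, by the lower of both values, the strongest pair of the calcium channels in its last exon, 35, at 6.30 and 4.21 over 1015 nt. The last exon pair of Cacna1g was at 4.12 and 2.33, and that of Cacna1i with its midpoint in coding sequence at 2.74 and 1.80. Each of the T-type genes had an interval in a long exon of the loop from domain I to II. Values there were 3.23 and 1.54 in exon 8 of Cacna1g, 3.07 and 1.81 in exon 9 and 3.17 and 2.35 in exon 10 of Cacna1h, and 4.41 and 2.38 in exon 10 of Cacna1i. Cacna1g was the only pore gene with a placed 5′ UTR interval, at 4.16 and 3.03.
Cacna1h, exon 35, codon 2237, chr17:25375461-25375485, minus strand: ccctccatagGGACTgcccagagtc
Cacna1g, exon 38, codon 2246, chr11:94409542-94409566, minus strand: tgtccccacgGGACTtgaaaaaatg

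Among auxiliary subunits, the gamma subunits had the most intervals for their length. Over the 6 of 8 gamma genes with intervals there were 0.918 per kb of mRNA, against 0.500 for pore genes, 0.636 for all auxiliary genes and 0.580 for all protein-coding genes with intervals. The 18 gamma pairs had medians of 3.57 in replicate 1 and 2.54 in replicate 2. Cacng2 (stargazin), a partner of AMPA receptors, had 6 intervals. The one over the coding end was at 6.20 and 3.17, and a distal 3′ UTR interval, 3050 nt past it, was at 3.97 and 3.83. The first had the higher value in replicate 1 and the second in replicate 2. The others were at 3.84 and 3.04 and at 2.76 and 2.21 in the 3′ UTR, at 3.61 and 2.45 in the 5′ UTR, and at 2.13 and 1.70 at the start of the gene, where A730060N03Rik overlaps.
Cacng2, codon 309, chr15:77995183-77995207, minus strand: aggacagcaaGGACTctctccacgc
Cacng2, distal 3′ UTR, chr15:77992099-77992123, minus strand: agaacgaattGGACTtcttcccagg

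Cacng5 had 3 intervals, all with midpoints in the 3′ UTR, at 4.19 and 1.90, 4.40 and 3.31, and 3.29 and 3.84. Cacng8, also an AMPA receptor partner, had 3, at 2.93 and 2.36 in exon 1, 2.18 and 2.73 in exon 3, and 3.66 and 2.20 in exon 6, where Gm23450 overlaps. Cacng3 had 2, at 3.54 and 2.64 in the 5′ UTR and at 3.60 and 2.21 just past the coding end. Cacng4 had 2, at 3.65 and 2.87 and at 2.88 and 2.97, and Cacng7 had 2, at 3.25 and 1.85 and at 1.49 and 1.68. Within the gamma group, replicate 2 was the higher in 4 of 18 pairs.

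All 4 beta subunits of calcium channels, cytoplasmic proteins that bring the pore to the membrane, had an interval over the coding end in exon 14 or, in Cacnb3, exon 13. The values were 4.99 and 2.22 for Cacnb1, 5.87 and 3.31 for Cacnb2, 3.98 and 2.14 for Cacnb3 and 3.08 and 2.62 for Cacnb4. The ratio of Cacnb1, 2.24, was among the 5 largest. The last exon of Cacnb4 overlaps A430018G15Rik, and the lists have no strand. The motif windows of Cacnb3 and Cacnb4 are shown, since they lie 64 and 79 nt before the coding end.
Cacnb3, codon 463, chr15:98643492-98643516, plus strand: tcctagcccaGGACTcggagcatga
Cacnb4, codon 493, chr2:52434559-52434583, minus strand: aagattacccGGACTcgtaccagga

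Of the alpha2delta subunits, extracellular proteins of which some are targets of gabapentin-type drugs, Cacna2d1 and Cacna2d2 had shared intervals. Cacna2d1 was at 3.79 and 3.57 over the coding end (chr5:16370597-16371113), 1 of the 10 strongest pairs of all members and close between replicates, and at 1.69 and 1.84 at its first exon. Cacna2d2 had the largest ratio between replicates of all members, 2.78, in its 5′ UTR (5.36 and 1.93). Its 3′ UTR pairs were at 2.72 and 1.71 and at 2.88 and 1.92.
Cacna2d1, codon 1086, chr5:16370608-16370632, plus strand: gtctatctttGGACTccagtttata

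The beta subunits of sodium channels, adhesion-type membrane proteins, had the lowest medians of the subunit groups. Their 6 pairs, 4 of them in Scn2b, had medians of 2.19 and 1.76. All 7 intervals had their midpoint in the 3′ UTR, and 1 of them, in Scn2b, also covered the last coding base. Scn2b had 4 intervals, and the highest value was 2.58 in replicate 1 (with 1.70 in replicate 2) and 1.82 in replicate 2 (with 1.70 in replicate 1), in different intervals. Scn3b was at 3.06 in replicate 1, where 1 peak of 1218 nt overlapped replicate 2 peaks at 2.79 and 2.89, and Scn4b was at 2.44 and 1.83. The values of Scn3b were above the medians of all members, 2.99 in replicate 1 and 2.20 in replicate 2.

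**Figure D5:**
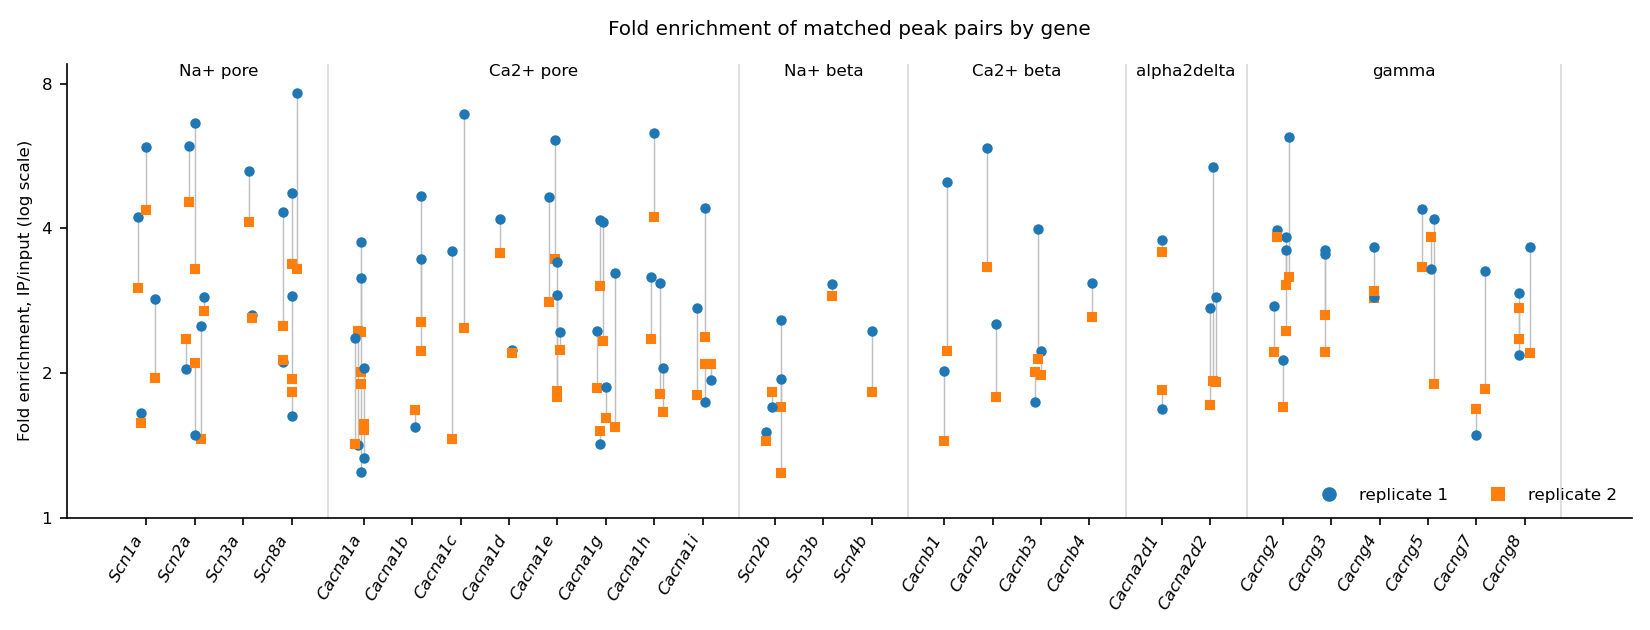
Fold enrichment of IP over input (log scale) of the 88 matched peak pairs of the 27 genes, by gene and subunit group, with replicate 1 as circles and replicate 2 as squares joined by a line. Replicate 1 is higher in 70 pairs, and the pairs of pore and auxiliary genes cover overlapping ranges.

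The fold enrichment of pore and auxiliary genes did not differ in a stable direction. Pairs were formed from peaks that were each other's best match, 51 in pore and 37 in auxiliary genes. The medians were 2.91 and 3.06 in replicate 1, and 2.20 and 2.20 in replicate 2. Over all genes they were 2.98 and 2.30 in replicates 1 and 2. The difference of the medians of the mean log2 fold enrichment of both replicates, pore minus auxiliary, was -0.26, and with each gene counted once it was 0.11. Replicate 1 was the higher in 70 of 88 pairs (79.5%), where the share over all genes was 78.3%. The shift between the replicates is thus not particular to the channel genes.

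Position within the gene went with larger differences than subunit type. Places were assigned by midpoint. In pore genes the 11 pairs in the coding part of the last exon had medians of 5.27 and 3.28, and the 6 in its 3′ UTR had 2.15 and 1.88. Of the 11, all but those of Cacna1b and Cacna1i also covered the last coding base, so that the 2 places were not cleanly separated. Their intervals were also longer, with a median of 766 nt against 294 nt, and the part of length was not tested. Pairs in internal exons of 400 nt or more had 3.49 and 2.36 (12 pairs), and those in shorter internal exons 2.17 and 2.05 (18 pairs). In auxiliary genes the coding part of the last exon had 4.48 and 2.42 (6 pairs) and its 3′ UTR 2.88 and 2.01 (21 pairs). Over all genes the coding part of the last exon had 3.85 and 2.75, its 3′ UTR 3.12 and 2.48, internal exons of 400 nt or more 3.51 and 2.54, and shorter ones 2.35 and 1.85. The 3′ UTR pairs were thus above those of short internal exons over all genes, but not in the pore genes. Among genes with pairs both in and outside the last exon, the strongest pair was in the last exon in 10 of 16 channel genes in replicate 1 and in 8 of 16 in replicate 2, against 57.6% and 61.2% over all genes. The 10 pairs with the largest lower value were in Scn2a, Scn1a, Cacna1h, Scn3a, Cacng2, Cacna2d1, Cacna1d, Cacna1e, Scn8a and Cacnb2, 1 each, and 8 of these lay in the last exon.

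GGACT was found in 38 of the 84 placed intervals (45.2%), where the share over all genes was 39.3%. It was in 21 of 51 pore intervals (41.2%, 28.8 to 54.8) and 17 of 33 auxiliary intervals (51.5%, 35.2 to 67.5), and these Wilson intervals overlap widely. The counts by enrichment differed more in pore than in auxiliary genes, which was not tested. Of the 27 placed pairs at 2 or more in both replicates 18 held GGACT, and of the 21 weaker pairs 1 did. In auxiliary genes 12 of 20 stronger and 4 of 12 weaker pairs held it. The stronger intervals were longer in both sets. Their medians were 471 nt against 291 nt in pore genes and 503.5 nt against 250.5 nt in auxiliary genes. The part of length in these counts was not tested, and the intervals of all genes were not split in this way. Of the 199 GGACT in the mRNAs of the 27 genes, 60 (30.2%) were inside shared intervals, which covered 21.9% of the mRNA length. Over all genes these values were 28.8% and 19.8%.

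A list of 25 genes held those whose products bind, anchor or regulate these channels, or form the related leak channel (Nalcn, Unc79 and Unc80). Of the 25, 22 had a shared interval over exons. The share was 45.5% over all protein-coding genes and 72.4% over those in the length range of the pore subunits. The mRNAs of the list ran from 1205 nt to 13613 nt (Unc80). The axon initial segment genes had the most, with 14 intervals in Ank3, which encodes the anchor of sodium channels, 12 in Sptbn4 and 8 in Nfasc. The fibroblast growth factor homologues that bind sodium channel tails had 1 in Fgf11, 4 in Fgf12, 1 in Fgf13 and 2 in Fgf14. The active zone genes had 7 in Rims1, 4 in Rims2 and 6 in Rimbp2. The genes without one were Rem1, Gem and Rrad, small GTPases that inhibit calcium channels, while Rem2 of the same family had 1.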

How the data were processed

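Per the methods, the authors removed adapters (Cutadapt), discarded short and ambiguous reads (Trimmomatic), aligned to mm10 with TopHat (TopHat2 2.0.9 in the submitters' processing notes, while the methods name another version), kept unique reads and called peaks with MACS2 in each IP replicate against its own input. The deposited values are the fold enrichment of each peak, a linear ratio of IP over input, with chromosome, start and end. Duplicates were kept, which can raise the ratio of peaks built on few molecules. The lists hold no counts, strand, summit or p-value, so that depth is unknown. The samples are labelled as 2 replicates, which the methods call biological.

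The members, gene lists and comparisons were chosen with earlier results of these data known, and p-values are not given, since genes and peaks are not replicates. A few genes and sequences are not reported here. Values are given for the other members, in most detail for the genes with most intervals, the 10 strongest pairs, the 5 with the largest ratio and the genes without a shared interval. Shared intervals were assigned to all exons of a gene, and midpoints placed on the mRNA with the longest coding sequence. Channel proteins were aligned with MAFFT. Python 3.11.15 with numpy 2.4.6 was used. The functions for overlap and placement were run on simulated peaks, where 400 of 400 shared peaks and 600 of 600 positions were recovered. The simulated pairs had a common centre on an exon, so this checked coordinates but not partial overlaps or midpoints outside exons. Alternatives were a stricter overlap, a minimum fold enrichment, merged peaks, single replicates and other windows, transcripts and motifs.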

Additional observations from a re-analysis of the deposited data

Results flagged for a closer look

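Some shared intervals inside the channel genes had bases over no annotated exon. They are listed here because both replicates had a signal there and these intervals entered none of the counts of exonic intervals above. There were 12 in 6 genes (3 in Scn9a, 3 in Cacna1a, 2 in Cacna1c, 2 in Cacna2d3, 1 in Cacna1e and 1 in Cacna2d4). Their medians were 4.51 (replicate 1) and 3.01 (replicate 2), and 9 of 12 were higher in replicate 1. Intronic intervals were not counted over all genes. Whether their number or values are particular to the channel genes was therefore not tested. The highest value was in Cacna2d3, a gene with no shared interval over exons (chr14:29687407-29687991), at 5.52 in replicate 1 and 6.27 in replicate 2. A second one in the same gene was at 4.89 and 4.60. In Scn9a the intervals were at 4.54 and 3.40, 3.65 and 2.90, and 5.87 and 2.41. Of the 12 intervals, 3 came from a peak that also touched an exon beyond the interval, in Scn9a (the replicate 2 peak at 3.40 given above), Cacna1a (an exon of Gm16183) and Cacna2d4 (an exon of Lrtm2). In the other 9 neither peak touched one. In all, 54 intronic peaks were found in replicate 1 and 11 in replicate 2 that touched no exon. The lists have no strand, and transcripts outside the annotation were not analysed here.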

How the results depend on the processing

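Of 53 values recomputed under alternatives for 8 results, 37 stayed within the spread or interval of the reported value. The number of genes with a shared interval was 27 as reported, 23 with a minimum fold enrichment of 2 and 31 with either replicate alone. The pore minus auxiliary difference in median log2 fold enrichment, -0.26, turned to 0.13 with a minimum fold enrichment of 2, 0.11 with each gene counted once and 0.011 as a mean, and lay between -0.10 and 0.13 with either replicate alone. The difference in shared peaks per kb of mRNA, -0.186, kept its direction, at -0.142 with 50% overlap, -0.108 with a minimum fold enrichment of 2, -0.815 per kb of coding sequence, -0.216 as a median over genes, and -0.199 to -0.166 with either replicate alone. Near the stop codon the pore share was 25.5% in the window of 400 nt and 23.5% with any base of the interval counted, and the auxiliary share was 18.2% in the window of 100 nt. The pore share with GGACT was 69.0% with a minimum fold enrichment of 2, 9.80% in a window of 100 nt and 68.6% for GGAC. For placed pore coding intervals between S4-III and S4-IV, the alternatives were chosen after seeing the data. The number of such intervals was 0 with 50% overlap and with a minimum fold enrichment of 2, and 1 with either replicate alone. The pore share in coding sequence stayed within 80.6% to 89.7% under its 6 alternatives. No paired analysis was possible because no result came from a test between groups. Depth limits absence: with unknown read counts, a gene without a peak is only one in which none was called.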
